A study of Mus musculus with 55 samples.

Results

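The Hox genes encode homeodomain transcription factors that give cells their position along the body axis. They were described here as 38 genes, each matched by symbol and each counted in the islet RNA-seq, of 47937 genes counted in all. They lie in 4 clusters on GRCm38. Cluster a runs on chromosome 6 from 52162417 to 52260880 (Hoxa2 to Hoxa13), cluster b on chromosome 11 from 96194316 to 96368256 (Hoxb13 to Hoxb1), cluster c on chromosome 15 from 102921103 to 103036852 (Hoxc13 to Hoxc4) and cluster d on chromosome 2 from 74668310 to 74765142 (Hoxd13 to Hoxd1).

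Within a cluster the genes stand in the order of their paralog group, the number in the gene name. Genes of low number are used in the hindbrain and the neck, those of middle number in the trunk, and those of groups 9 to 13 in the lumbar and tail region, the limbs and the urogenital tract. The Polycomb complex PRC2, of which Eed is a core subunit, places H3K27me3, the repressive histone mark that keeps Hox genes silent where they are not used. The foregut, from which the pancreas arises, is known for little use of the posterior Hox genes.

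The libraries came from whole, hand-picked islets of male C57B6/J mice, 16 in all. At 8 weeks of age there were 3 wild-type, 3 Eed heterozygous and 3 Eed -/- libraries, and at 25 weeks 3 wild-type, 2 heterozygous and 2 Eed -/- libraries. The Eed -/- animals (βEedKO) carried Eed flox/flox and RIP-cre, a Cre driven by the Ins2 promoter that acts in β cells from late embryogenesis, so the other cell types of the islet keep Eed. The βEedKO animals were overtly diabetic at 25 weeks. Their libraries of that age pooled islets of 4 or more animals each, and the other libraries held those of 1 or 2.

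Total counts ranged from 4645393 reads (wild-type replicate 2 at 25 weeks) to 22925359. Levels are given as CPM, read counts scaled for library size, with TMM factors that keep most genes level between libraries. For the βEedKO libraries at 25 weeks the TMM factors were 0.760 (replicate 2) and 1.497 (replicate 3), and the acinar marker genes summed to 378000 and 11600 CPM, so these libraries differ in makeup. Eed itself stood at 28.3, 22.0 and 19.2 CPM in wild type at 25 weeks and at 15.6 and 14.2 CPM in βEedKO (adjusted p = 0.142 by edgeR's quasi-likelihood test). At 8 weeks it stood at 23.8, 33.1 and 31.2 CPM against 14.9, 13.4 and 14.8 CPM (adjusted p = 0.0881). The groups did not overlap at either age, in the direction of the labels. The islet identity was plain from the β cell markers, which summed to between 122000 and 218000 CPM in the wild-type libraries, and to 13900 and 17200 CPM in βEedKO at 25 weeks, where 7 of 8 were called lower. In whole islets, fewer cells of a type and less RNA per cell cannot be told apart.

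The start regions of 5 Hox genes are printed because they span the responses described below. Hoxa10 and Hoxd13 went from no read in wild type at 25 weeks to over 100 reads in each βEedKO library, Hoxa13 had the start site that differed in chromatin state, Hoxd8 was the gene called at 8 weeks as well, and Hoxb1 had no read anywhere. Each is the RefSeq window of 300 bases on GRCm38.p6, from 250 before to 50 after the start, 5′ to 3′ on the gene's strand, with CG dinucleotides in capitals. Hoxa10 (minus strand, chr6:52240805-52241104) has 12 CG, Hoxa13 (minus strand, chr6:52260831-52261130) 45, Hoxb1 (plus strand, chr11:96365508-96365807) 10, Hoxd8 (plus strand, chr2:74704365-74704664) 6 and Hoxd13 (plus strand, chr2:74667975-74668274) 37.
Hoxa10: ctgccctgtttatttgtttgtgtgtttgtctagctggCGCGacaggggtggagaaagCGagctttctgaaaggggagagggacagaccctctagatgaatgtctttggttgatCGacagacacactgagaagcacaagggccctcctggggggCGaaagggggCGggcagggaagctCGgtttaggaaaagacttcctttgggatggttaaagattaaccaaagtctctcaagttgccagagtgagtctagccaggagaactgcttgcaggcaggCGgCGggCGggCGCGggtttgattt
Hoxa13: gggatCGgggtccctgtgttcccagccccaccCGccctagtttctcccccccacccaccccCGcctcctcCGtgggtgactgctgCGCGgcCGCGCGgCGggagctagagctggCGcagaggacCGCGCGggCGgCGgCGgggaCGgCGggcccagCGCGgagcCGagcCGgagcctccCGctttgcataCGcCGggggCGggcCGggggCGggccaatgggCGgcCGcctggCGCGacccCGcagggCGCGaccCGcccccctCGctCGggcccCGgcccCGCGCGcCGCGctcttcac
Hoxb1: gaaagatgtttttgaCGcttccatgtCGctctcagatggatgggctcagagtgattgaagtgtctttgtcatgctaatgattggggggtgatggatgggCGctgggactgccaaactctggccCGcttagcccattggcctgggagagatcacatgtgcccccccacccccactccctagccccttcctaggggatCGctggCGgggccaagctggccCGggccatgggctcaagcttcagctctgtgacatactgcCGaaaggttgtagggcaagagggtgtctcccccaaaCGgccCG
Hoxd8: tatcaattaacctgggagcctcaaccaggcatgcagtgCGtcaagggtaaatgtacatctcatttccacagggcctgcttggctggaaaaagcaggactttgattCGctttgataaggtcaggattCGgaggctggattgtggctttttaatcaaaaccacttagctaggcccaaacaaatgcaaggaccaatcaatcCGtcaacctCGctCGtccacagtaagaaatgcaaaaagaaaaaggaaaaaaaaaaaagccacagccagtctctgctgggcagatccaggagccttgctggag
Hoxd13: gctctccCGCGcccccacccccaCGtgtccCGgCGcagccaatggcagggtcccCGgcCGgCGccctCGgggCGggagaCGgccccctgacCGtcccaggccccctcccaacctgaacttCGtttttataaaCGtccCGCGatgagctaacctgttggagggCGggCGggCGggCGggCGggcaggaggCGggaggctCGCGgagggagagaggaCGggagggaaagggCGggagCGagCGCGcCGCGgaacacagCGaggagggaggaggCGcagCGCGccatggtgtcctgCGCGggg

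RefSeq windows were matched for 22 of the 38 Hox genes. Of these, Hoxa10 and Hoxd11 had a pair of windows, of which the one nearest the outermost 5′ end of the gene was used, and the other Hoxa10 window has 21 CG and a TATAAA. The starts of the windows for Hoxa7, Hoxa9, Hoxd4 and Hoxc4 lie 3281, 3719, 10049 and 15461 bases from that end of the gene. The windows used held a median of 13.5 CG dinucleotides and ranged from 4 to 45, beside a median of 7 over all 32851 windows (quartiles 3 and 20). The letters TATAAA, on either strand, stood in 3 of the 22 windows (Hoxb8, Hoxd4 and Hoxd13), 13.6%, the same share as over all windows (13.6%). The letters TGATNNAT, the core of Pbx and Hox binding sites, stood in 3 (Hoxa2, Hoxb1 and Hoxb8), 13.6%, beside 8.85% of all windows. The Hoxd11 window that was not used has 25 CG and a TGATNNAT, where the one used has 4 CG and none. A match is a run of letters and not a bound site.

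In wild-type islets the Hox genes were close to silent. Their summed level was 6.08, 3.77 and 2.70 CPM at 8 weeks and 10.7, 4.36 and 4.41 CPM at 25 weeks, in each case over all 38 genes. Per length of exon the highest was Hoxa5 at both ages, at 0.453 CPM per kb at 8 weeks and 0.578 CPM per kb at 25 weeks. Of the 38 genes, 11 had 0 reads in all 6 wild-type libraries: Hoxa13, Hoxb1, Hoxb13, Hoxc9, Hoxc11, Hoxc12, Hoxc13, Hoxd1, Hoxd10, Hoxd11 and Hoxd12. Of these, 9 belong to paralog groups 9 to 13, which hold 16 of the 38 genes. Between the ages no Hox gene was called in wild type by edgeR (0 of 35 tested, and 0 at an unadjusted p under 0.05, against 10.2% of all genes tested), and in none did the ages stand apart with 25 weeks above 8 weeks (5.71% of all genes with a read). This comparison was added after the data were seen. It could show little, since 9 of the 35 genes tested had no read in any wild-type library. The others had a mean of at most 1.19 CPM at either age.

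In βEedKO islets at 25 weeks the Hox genes summed to 247 and 299 CPM. Of the 38 genes, 35 passed the filter on low counts for the comparison with wild type of that age, and 27 of them were called higher (adjusted p under 0.05, edgeR's quasi-likelihood test with Benjamini-Hochberg adjustment over 18685 genes), where 4.58% of all genes tested were called higher. No Hox gene was called lower (2.02% of all genes), and 34 had an unadjusted p under 0.05 (20.3%). A call lower was hardly possible at their wild-type levels. At 25 weeks 15 of the 38 had no read in wild type, and the highest mean was 1.19 CPM. The filter passes a gene that is high in a single group, so for the 38 genes irrespective of the filter, both βEedKO libraries lay above all 3 wild-type libraries in 35, against 22.6% of all genes with a read. The exceptions were Hoxa4, Hoxb1 and Hoxb2. The median fitted log2 fold change of the tested Hox genes was 6.60, or 5.58 with genes at 0 in wild type set to their lower bound, and that of all genes 0.03. Both βEedKO libraries carried the rise: 37 of the 38 genes had reads in each, and replicate 3 stood at a median of 1.25 times replicate 2 with TMM scaling and 2.47 times with library size alone. With the replicate number as a block, 18 Hox genes were called higher (3.16% of all genes higher and 2.33% lower), and the calls of Hoxa5, Hoxa6, Hoxa11, Hoxb6, Hoxc5, Hoxc8, Hoxc11, Hoxc13 and Hoxd3 were lost.

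**Figure D1:**
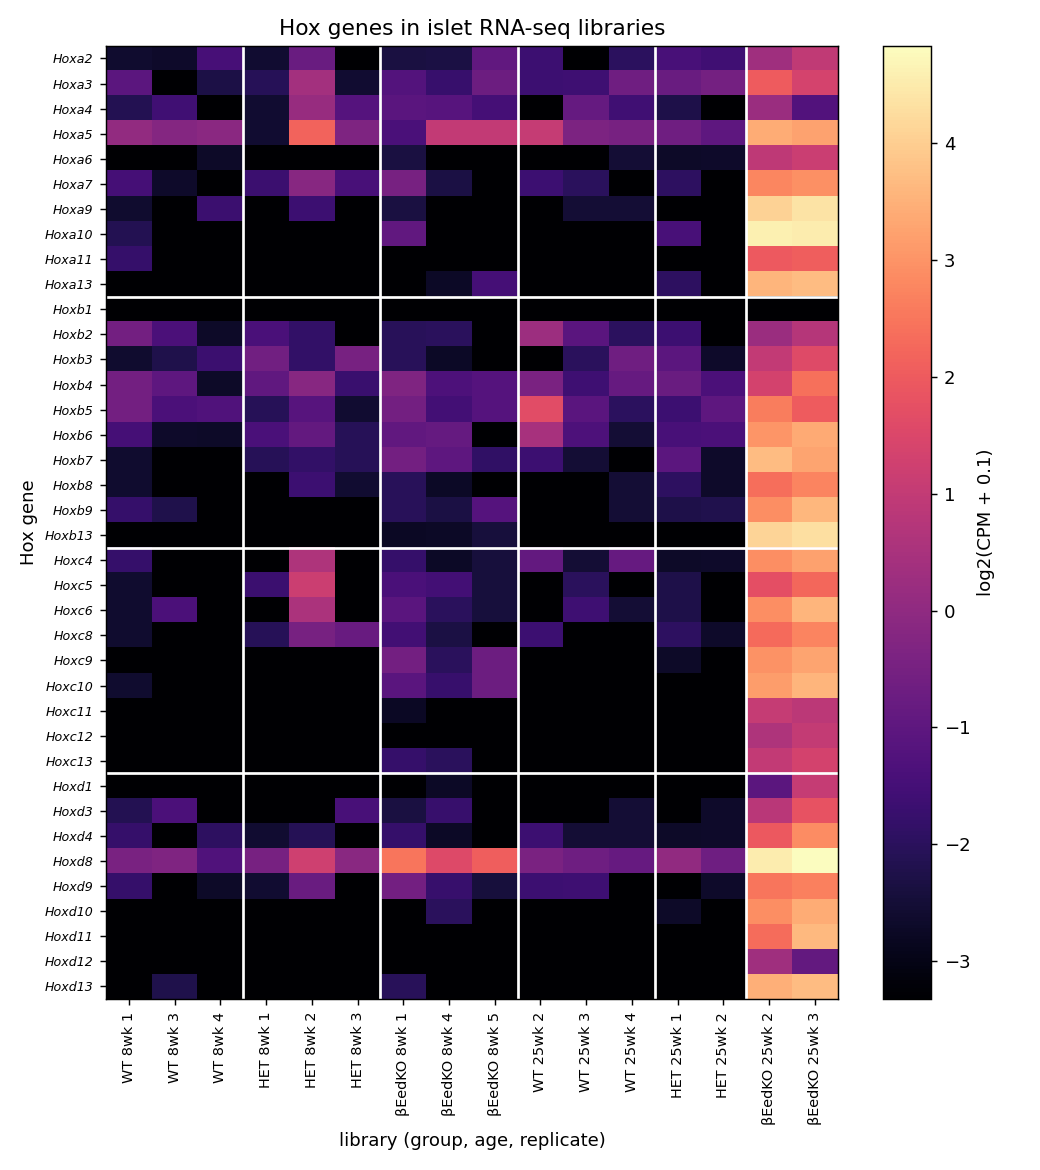
Level of each of the 38 Hox genes (vertical, in cluster order) in each of the 16 islet libraries (horizontal) as log2(CPM + 0.1), where black is 0 reads. The 2 βEedKO libraries at 25 weeks are bright in nearly every gene (summed level 247 and 299 CPM), the 3 βEedKO libraries at 8 weeks mainly in Hoxd8, and heterozygous replicate 2 at 8 weeks in genes of low and middle number.

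The number of genes called differed along the clusters. Of paralog groups 1 to 3, 1 of 7 genes was called (Hoxd3), of groups 4 to 8, 12 of 15, and of groups 9 to 13, 14 of 16. With the replicate block 0, 7 and 11 of these genes remained called. The median fitted log2 fold changes of the tested genes were 3.15, 5.57 and 9.48 in this order, but 13 of the 16 genes of groups 9 to 13 had no wild-type read at 25 weeks, and with such genes at their lower bound the medians were 3.15, 5.57 and 6.62. The posterior genes had the lowest wild-type levels, which a ratio turns into a larger change, so the absolute levels are given as well. Groups 9 to 13 summed to 133 and 162 CPM in βEedKO, beside 0.155 to 0.301 CPM in wild type at 25 weeks. Groups 4 to 8 summed to 104 and 123 CPM, beside 2.78 to 8.94 CPM, and groups 1 to 3 to 10.1 and 14.2 CPM, beside 0.752 to 1.53 CPM. By cluster, 7 of 10 genes were called in a, 5 of 10 in b, 8 of 9 in c and 7 of 9 in d.

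**Figure D2:**
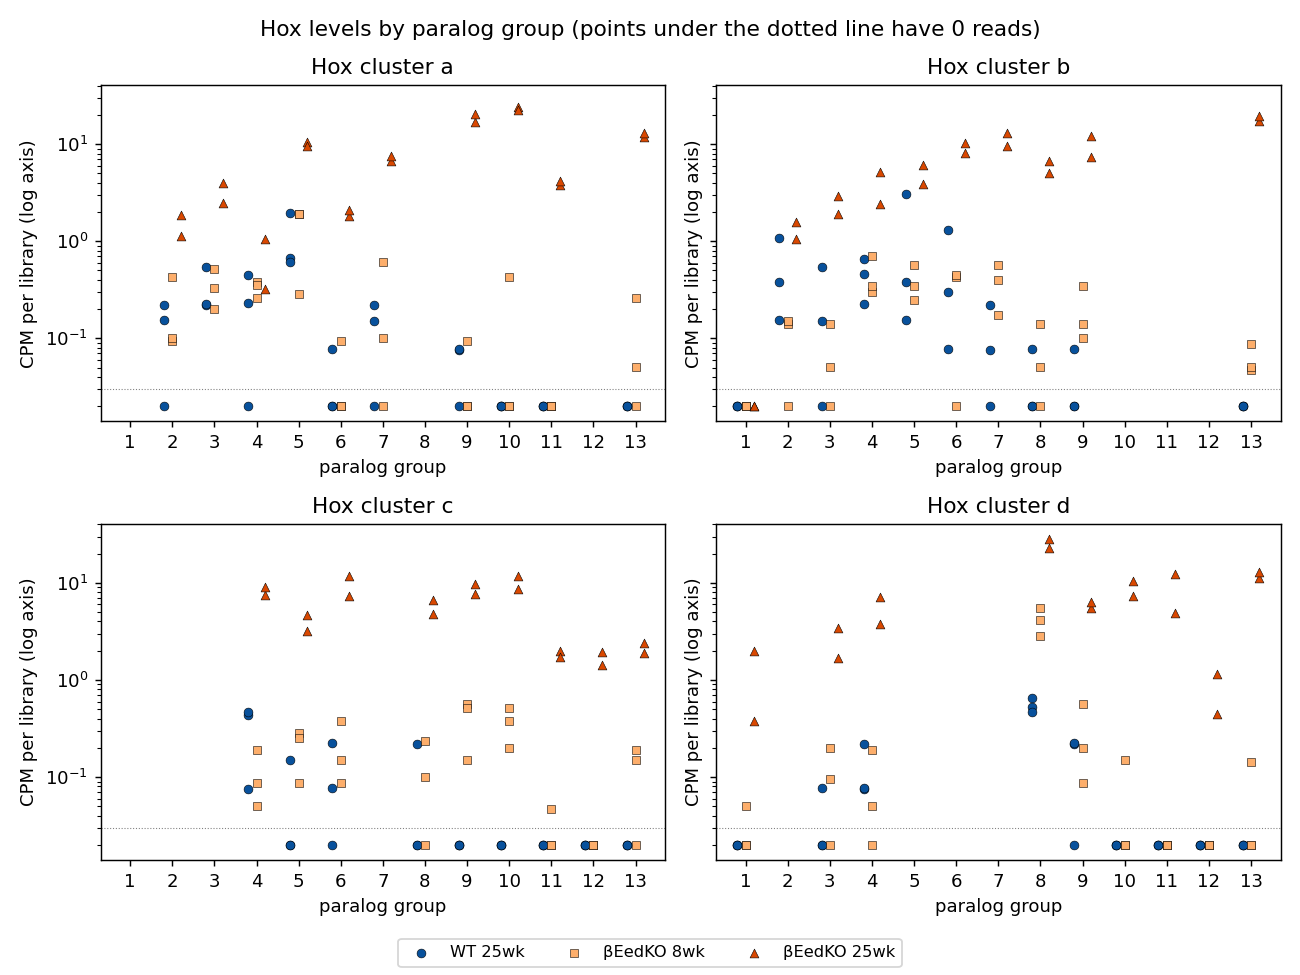
Level of each Hox gene in each library as CPM on a log axis against its paralog group, in a panel per cluster, for wild type at 25 weeks (circles, 3 libraries), βEedKO at 8 weeks (squares, 3) and βEedKO at 25 weeks (triangles, 2); points under the dotted line have 0 reads. The triangles lie above the circles in all but groups 1 and 2 of cluster b and group 4 of cluster a, and from group 9 on most circles lie at 0.

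For genes with no wild-type read at 25 weeks, a lower bound on the fold is given, from the floor of 3 reads over the 3 libraries. For genes with 1 to 3 such reads the ratio of the pooled levels is given with its 95% interval for counting error. For the rest the fold comes from the fit. Reads are listed for wild-type replicates 2, 3 and 4 and then for βEedKO replicates 2 and 3, whose total counts were 4645393, 11854558 and 15004056, and 17308262 and 16565560. Adjusted p-values are from edgeR's quasi-likelihood test. The spread behind them comes from all wild-type and βEedKO libraries of the fit, those of the younger age included. They thus do not measure the spread between the listed libraries alone.

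Among the genes of groups 9 and 10, Hoxa10 (ENSMUSG00000000938.11), needed for the uterus and the lumbar spine, had 0, 0 and 0 reads and then 318 and 563 (24.2 and 22.7 CPM), at least 239-fold higher (adjusted p = 0.0082). Hoxa9, a regulator of blood progenitors, had 0, 1 and 1 reads and then 220 and 508, a ratio of 296 (interval 81.6 to 2450; log2 fold change 7.98 ± 1.02 SE, adjusted p = 0.00187). Hoxb9, a patterning gene of the ribs, had 0, 0 and 1 reads and then 97 and 299, a ratio of 322 (57.4 to 12700; 7.88 ± 1.10, adjusted p = 0.00295). These genes went from the edge of detection to several CPM in each βEedKO library, with no overlap. Hoxc9, which sets thoracic motor neuron identity, had 0, 0 and 0 reads and then 102 and 241, at least 92.9-fold higher (adjusted p = 0.00493). Hoxc10 had 0, 0 and 0 reads and then 115 and 295, at least 111-fold higher (adjusted p = 0.002). Hoxd10, used in lumbar motor neurons, had 0, 0 and 0 reads and then 97 and 260, at least 96.7-fold higher (adjusted p = 0.0151). Hoxd9, which acts with Hoxd10 in the hindlimb, had 1, 3 and 0 reads and then 72 and 156, a log2 fold change of 5.32 ± 1.12 (SE; adjusted p = 0.02). With it, every gene of groups 9 and 10 in the 4 clusters was called, and each stayed called with the replicate block.

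The genes of groups 11 and 12 reached 0.313 to 2.05 CPM per kb in βEedKO at 25 weeks, below the 2.75 to 7.17 CPM per kb of groups 9 and 10. Hoxd11, which with Hoxa11 patterns the forearm and the kidney, had 0, 0 and 0 reads and then 64 and 307 (4.87 and 12.4 CPM), at least 100-fold higher (adjusted p = 0.0226). Hoxa11 had 0, 0 and 0 reads and then 50 and 103, at least 41.4-fold higher (adjusted p = 0.036). Hoxc11 had 0, 0 and 0 reads and then 26 and 43, at least 18.7-fold higher (adjusted p = 0.033). An antisense transcript, Hoxa11os, covers 35.0% of the exonic bases of Hoxa11, and the reads of the pair cannot be told apart without strand. The genes of group 12 were not called. Hoxc12 had 0, 0 and 0 reads and then 19 and 48, at least 18.1-fold higher (adjusted p = 0.0668), and Hoxd12 had 0, 0 and 0 and then 15 and 11, at least 7.04-fold higher (adjusted p = 0.148).

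The genes of group 13, the last in each cluster and known from digits, genitalia, prostate and hair, were called in all 4 clusters without the block, and the call of Hoxc13 was lost with it. Hoxb13 (ENSMUSG00000049604.3) had 0, 0 and 0 reads and then 226 and 483 (17.2 and 19.5 CPM), at least 192-fold higher (adjusted p = 0.00101). Hoxa13 (ENSMUSG00000038203.18) had 0, 0 and 0 reads and then 156 and 323 (11.9 and 13 CPM), at least 130-fold higher (adjusted p = 0.0112). Hoxd13 (ENSMUSG00000001819.4) had 0, 0 and 0 reads and then 146 and 320 (11.1 and 12.9 CPM), at least 126-fold higher (adjusted p = 0.00675). Hoxc13, the member used in hair follicles, had 0, 0 and 0 reads and then 25 and 60 (1.90 and 2.42 CPM), at least 23.0-fold higher (adjusted p = 0.0346). Per length it stood at 0.878 CPM per kb in βEedKO, where Hoxb13 stood at 8.31, Hoxa13 at 5.03 and Hoxd13 at 4.83 CPM per kb. Hoxb13 lies far from the rest of its cluster, and the next gene, Hoxb9, stood at 3.78 CPM per kb. These differences between genes were not tested.

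In groups 4 to 8 every gene had some reads in wild type at 25 weeks. Their median level in βEedKO was 2.24 CPM per kb, beside 3.47 CPM per kb for groups 9 to 13 and 0.565 CPM per kb for groups 1 to 3. Hoxd8 (ENSMUSG00000027102.4) was the highest of the 38 per length in βEedKO at 25 weeks, at 9.31 CPM per kb of exon. It had 3, 7 and 6 reads and then 300 and 701 (22.8 and 28.3 CPM), a log2 fold change of 5.51 ± 0.444 (SE; adjusted p = 0.00017). Hoxb8, known from microglia and myeloid progenitors, had 0, 0 and 1 reads and then 67 and 165, a ratio of 188 (33.5 to 7480; 7.16 ± 1.13, adjusted p = 0.00471). Hoxc8, a trunk skeleton gene, had 1, 0 and 0 reads and then 63 and 164, a ratio of 184 (32.8 to 7320; 6.95 ± 1.31, adjusted p = 0.0116). Every group 8 gene was thus called, with the groups apart, although Hoxc8 was not called with the replicate block. Hoxb7, which the study also expressed in a β cell line with other ectopic transcription factors, had 1, 1 and 0 reads and then 171 and 238, a ratio of 166 (45.7 to 1380; 7.13 ± 0.967, adjusted p = 0.00249). Hoxa7 had 1, 2 and 0 reads and then 89 and 187, a ratio of 74.7 (25.3 to 365; 5.96 ± 1.37, adjusted p = 0.0291). Per length Hoxb7 reached 7.32 CPM per kb and Hoxa7 2.49 CPM per kb in βEedKO at 25 weeks.

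Among groups 4 to 6, Hoxc6 had 0, 3 and 1 reads and then 96 and 292, a log2 fold change of 6.13 ± 1.07 (SE; adjusted p = 0.00772). Hoxa6 had 0, 0 and 1 reads and then 24 and 52, a ratio of 61.7 (10.8 to 2470; 5.58 ± 1.31, adjusted p = 0.0315). Hoxb6 had 6, 4 and 1 reads and then 107 and 255, a log2 fold change of 4.23 ± 1.10 (adjusted p = 0.0467). Hoxb6 stood closest to the threshold of the genes called. Hoxa5, a gene of lung development, had 9, 9 and 8 reads and then 140 and 236, a log2 fold change of 3.26 ± 0.753 (adjusted p = 0.0297). Hoxc5 had 0, 2 and 0 reads and then 42 and 115, a ratio of 63.8 (17.4 to 531; 5.75 ± 1.08, adjusted p = 0.0112). Hoxb5 had 14, 5 and 2 reads and then 80 and 97, and its log2 fold change of 2.18 ± 0.961 was not called (adjusted p = 0.233). For Hoxb5 the wild-type libraries themselves ranged from 0.155 to 3.05 CPM. Of group 4, Hoxc4 had 2, 1 and 6 reads and then 98 and 226 (4.67 ± 0.987, adjusted p = 0.0206). Hoxd4, which shares 52.3% of its exonic bases with neighbouring gene models, had 1, 1 and 1 reads and then 49 and 177, a ratio of 61.2 (20.7 to 299; 5.56 ± 1.08, adjusted p = 0.0132). Hoxb4, a gene known from blood stem cells, had 3, 3 and 6 reads and then 32 and 127, and missed the threshold at 3.09 ± 0.839 (adjusted p = 0.0559). Hoxa4 had 0, 6 and 3 reads and then 14 and 8, did not pass the filter, and overlapped between the groups.

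The genes of groups 1 to 3, those of the hindbrain, pharynx and neck, had the fewest calls, 1 of 7. In 5 of the 7 both βEedKO libraries still lay above all wild-type libraries at 25 weeks. Hoxb1 (ENSMUSG00000018973.2), which specifies a hindbrain segment, had 0 reads in all 16 libraries, with total counts of up to 22925359. Hoxb2 had 5, 5 and 2 reads and then 14 and 39, overlapped between the groups and was not called (1.39 ± 1.05, adjusted p = 0.518). Hoxa2 had 1, 0 and 2 reads and then 15 and 46 (adjusted p = 0.0929). Both genes are hindbrain regulators, and neither exceeded 2 CPM in βEedKO. Hoxa3, needed for thymus and parathyroid, had 1, 3 and 7 reads and then 52 and 62 (3.15 ± 0.95, adjusted p = 0.0799). Hoxb3 had 0, 2 and 7 reads and then 25 and 72 (3.10 ± 0.982, adjusted p = 0.0968). Hoxd1, a gene of sensory neurons, had 0, 0 and 0 reads and then 5 and 49, and did not pass the filter. By the floor it was at least 14.6-fold higher. The called gene Hoxd3 had 0, 0 and 1 reads and then 22 and 85, a ratio of 86.9 (15.3 to 3470; 5.96 ± 1.42, adjusted p = 0.0336). Its count is uncertain, since 62.8% of its exonic bases are shared with Hoxd4 and other gene models.

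Of the 38 genes, 23 share no exonic base with another gene model of the annotation. Of these, 21 were tested and 18 were called higher, against 4.58% of all genes tested. The count was lower without some of the libraries. Without wild-type replicate 3 or 4 at 25 weeks 13 and 11 genes were called, and the share of all genes called higher fell as well, to 1.85% and 2.01%. Without βEedKO replicate 2 or 3 at 25 weeks a lone library was left. The median log2 fold change of the tested Hox genes was then 6.86 and 6.25, beside 6.60 with both. Under all 20 alternatives in scaling, filter, test, block and libraries, 9 genes were called: Hoxa9, Hoxb7, Hoxb8, Hoxb9, Hoxb13, Hoxc9, Hoxc10, Hoxd8 and Hoxd13. In no alternative did a called gene change direction.

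At 8 weeks 1 of the 35 Hox genes tested was called higher in βEedKO and 0 lower, where 0.428% of all genes tested were called higher and 0.00535% lower. Most of the 35 passed the filter through the βEedKO libraries of the later age, and with the libraries of 8 weeks alone 2 passed. Hoxc12, Hoxd11 and Hoxd12 had no read at 8 weeks, so for them the test could call nothing. The highest wild-type mean was 0.851 CPM, so a call lower was hardly possible. The called gene was Hoxd8, which lies on chromosome 2 from 74704615 to 74707933. It had 10, 12 and 6 reads in wild-type replicates 1, 3 and 4 (0.634, 0.697 and 0.318 CPM) and 117, 57 and 48 in βEedKO replicates 1, 4 and 5 (5.55, 2.86 and 4.15 CPM). Its log2 fold change was 2.92 ± 0.382 (SE; adjusted p = 0.0103 by edgeR's quasi-likelihood test), and every βEedKO library lay above every wild-type library. The adjusted p ranged from 7.39e-08 (DESeq2) to 0.169 (replicate block) over the alternatives. It was 0.0621 without wild-type replicate 4 at 8 weeks and 0.14 with the libraries of that age alone. The log2 fold change was 3.13 with the block and 2.94 with that age alone. At an unadjusted p under 0.05 there were 7 of 35 Hox genes, against 7.87% of all genes. The limit from low counts holds for this share as well.

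The βEedKO libraries lay above all wild-type libraries at 8 weeks in 7 of 38 Hox genes (Hoxa4, Hoxb7, Hoxb13, Hoxc5, Hoxc9, Hoxc10 and Hoxd8), against 5.17% of all genes with a read. Heterozygous replicate 2 of that age stood above every βEedKO library in Hoxa4 (1.02 CPM beside 0.259 to 0.379) and Hoxc5 (2.17 CPM beside 0.0865 to 0.284). In the others of the 7 genes no heterozygous library did. Hoxc9 had 0, 0 and 0 reads in wild type and 12, 3 and 6 in βEedKO, at least 6.90-fold higher (unadjusted p = 0.00148, adjusted p = 0.136 by edgeR). Hoxb7 had 1, 0 and 0 and then 12, 8 and 2, a ratio of 21.7 (3.51 to 895; adjusted p = 0.191). Hoxc10 had 1, 0 and 0 and then 8, 4 and 6, a ratio of 17.8 (2.80 to 740; adjusted p = 0.198). These 3 genes were among those called at 25 weeks, and at 8 weeks each rested on few reads. Hoxb13, with at least 226 reads in each βEedKO library at 25 weeks, had 1 read in each at 8 weeks. Hoxd11 had 0 reads in every library other than the βEedKO libraries of 25 weeks, as had Hoxc12 and Hoxd12. Over the 38 genes the βEedKO libraries at 8 weeks summed to 14.0, 9.07 and 10.2 CPM, of which Hoxd8 gave 5.55, 2.86 and 4.15. These sums lay below the 19.0 CPM of heterozygous replicate 2 of that age.

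The fold changes of the 2 ages could not be set against each other for every gene. In the test of the difference between the effects at 25 and at 8 weeks, 0 of 35 Hox genes were called by edgeR (0.091% of all genes were called higher and 0.107% lower), 16 had an unadjusted p under 0.05 (7.76% of all genes), and DESeq2 called 7, against 0.894% of all genes higher and 0.931% lower. For 9 of the 35 there was no read in any of the 6 wild-type libraries, and their lowest p was 0.999, so this test has no bearing on them. Of the other 26, Hoxa9 had the lowest adjusted p, 0.0624. A direct comparison of βEedKO at 25 weeks with βEedKO at 8 weeks, chosen after seeing these values, uses no wild-type level. It called 17 Hox genes higher and 0 lower, against 1.02% of all genes called higher and 0.487% lower. For most of them a call lower was hardly possible at the low levels of 8 weeks. The 17 included Hoxd8, at a log2 fold change of 2.56 (adjusted p = 0.0106), and Hoxa9, Hoxb13, Hoxd11 and Hoxd13. Both libraries of 25 weeks lay above all 3 of 8 weeks in 36 of 38 genes, against 15.9% of all genes. Without βEedKO replicate 4 or 5 at 8 weeks the count fell to 2 and 3, where 0.221% and 0.279% of all genes were called higher. It ranged from 12 to 20 without βEedKO replicate 1 at 8 weeks or each wild-type library (0.706% to 1.27% of all genes). Without βEedKO replicate 2 or 3 at 25 weeks a lone library was left. The median log2 fold change of the tested Hox genes was then 5.53 and 5.01, beside 5.37 with both. The age and the state of the animals (diabetic at 25 weeks) cannot be told apart.

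In heterozygous islets no Hox gene was called at either age, 0 of 36 tested at 25 weeks and 0 of 36 at 8 weeks by edgeR, which called 0.0% of all genes at either age. Most of the 36 passed the filter through the βEedKO libraries of 25 weeks, and with the libraries of 8 weeks alone 2 passed. Hoxb13, Hoxc11, Hoxc12, Hoxc13, Hoxd11 and Hoxd12 had no read in any wild-type or heterozygous library. For such genes the test could call nothing. DESeq2 also called 0 Hox genes, against 0.0106% of all genes higher and 0.00531% lower at 25 weeks and 0.648% higher and 1.55% lower at 8 weeks. At 25 weeks 0 Hox genes had an unadjusted p under 0.05 (1.12% of all genes had), and at 8 weeks 5 had (14.6% of all genes), namely Hoxb7, Hoxc5, Hoxc8 and Hoxd8 with a fitted fold change above 0 and Hoxb9 with 5 reads in wild type and 0 in heterozygous islets. Every heterozygous library lay above every wild-type library in 2 Hox genes at 25 weeks (Hoxa2 and Hoxb9, against 8.55% of all genes with a read) and below in 3 (Hoxa5, Hoxc4 and Hoxd4, against 5.76%). At 8 weeks they lay above in 2 (Hoxb7 and Hoxc8, against 8.16%) and below in 0. Heterozygous replicate 2 at 8 weeks stood apart: its Hox genes summed to 19.0 CPM, those of replicates 1 and 3 to 3.48 and 4.20. Hoxa5 had 1, 100 and 10 reads in the 3 heterozygous libraries of that age, Hoxc5 had 3, 49 and 0, and Hoxd8 had 9, 51 and 12. Groups 9 to 13 summed to 0.710 CPM in that library, as against 16.2 CPM for groups 4 to 8. The 10 mesenchyme markers summed to 339 CPM there, and to 121 and 138 CPM in the other heterozygous libraries of that age.

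Mesenchymal cells of adult organs are known to keep the Hox code of their origin, so the markers of this cell type were set beside the Hox genes. In βEedKO at 25 weeks 4 of the 10 markers were called higher (Col1a1, Col1a2, Dcn and Pdgfra), and they summed to 548 and 420 CPM, beside 172 to 260 CPM in wild type. Each of the 10 had reads in every library. At 8 weeks they summed to 201 to 340 CPM in βEedKO and 159 to 213 CPM in wild type, and none was called. Duct markers were higher in 3 of 6 (Krt19, Spp1 and Sox9) and summed to 695 and 569 CPM, beside 229 to 299 CPM. The macrophage markers summed to 416 and 126 CPM, beside 86.7 to 169 CPM, with 0 of 6 called. The part of these cell types in the Hox levels was not tested.

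**Figure D3:**
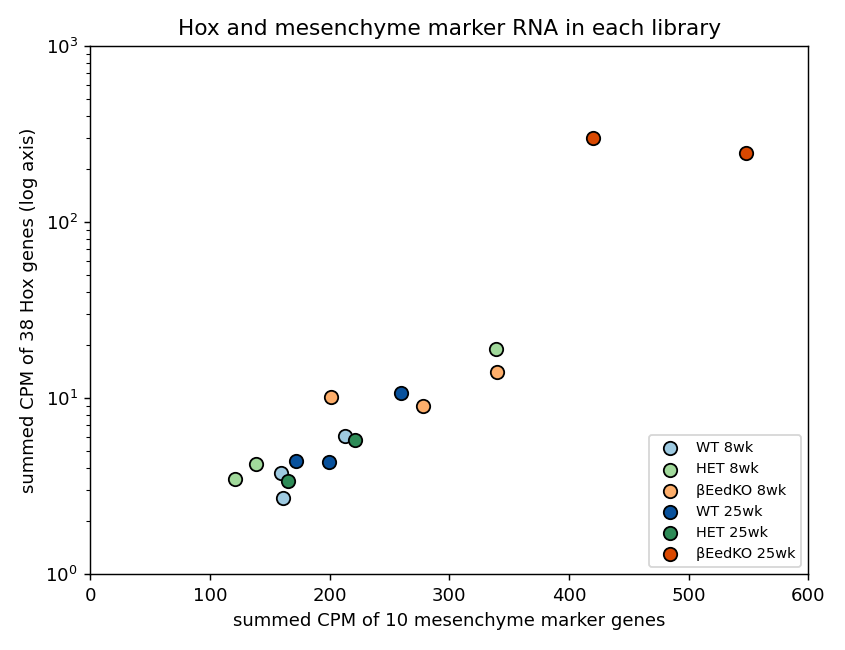
Summed level of the 38 Hox genes (log axis, CPM) against the summed level of 10 mesenchyme marker genes (CPM), with a point per library in the colour of its group. The wild-type and heterozygous libraries rise together to 19.0 CPM of Hox RNA at 339 CPM of mesenchyme markers, and the 2 βEedKO libraries at 25 weeks lie at 247 and 299 CPM of Hox RNA with 548 and 420 CPM of mesenchyme markers.

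The chromatin of wild-type islets was available as a segmentation into states, in bins of 200 bp. It did not come from the mice of the RNA libraries alone. The study combined its own ChIP-seq of male mice of several ages with published ChIP-seq, some of it from female mice. Published DNA methylation data of young islets were added. State M, a bivalent state high in H3K27me3, where the active mark H3K4me3 and the repressive mark lie together, made up 1.23% of the segmented genome. It covered 98.7% of cluster a, 88.2% of cluster b, 98.6% of cluster c and 99.6% of cluster d. The start sites of 37 of 38 Hox genes lay in state M and that of Hoxa13 in state L, another bivalent state, while of all 42903 counted genes with a state 4.37% started in M. Of the 38 gene bodies 26 lay wholly in state M, and the lowest share was 84.0%. Stretches of M are as a rule short, with a median of 1200 bp over 16394 segments. The longest of all, 60600 bp, overlapped cluster d, and the longest that overlapped cluster c (56600 bp) came next. Of the 20 longest, 9 overlapped Hox clusters, some of them only in part. Cluster b was broken up between Hoxb13 and Hoxb9, where 17600 bp (10.1% of the cluster) were in state N, a Polycomb-repressed state.

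**Figure D4:**
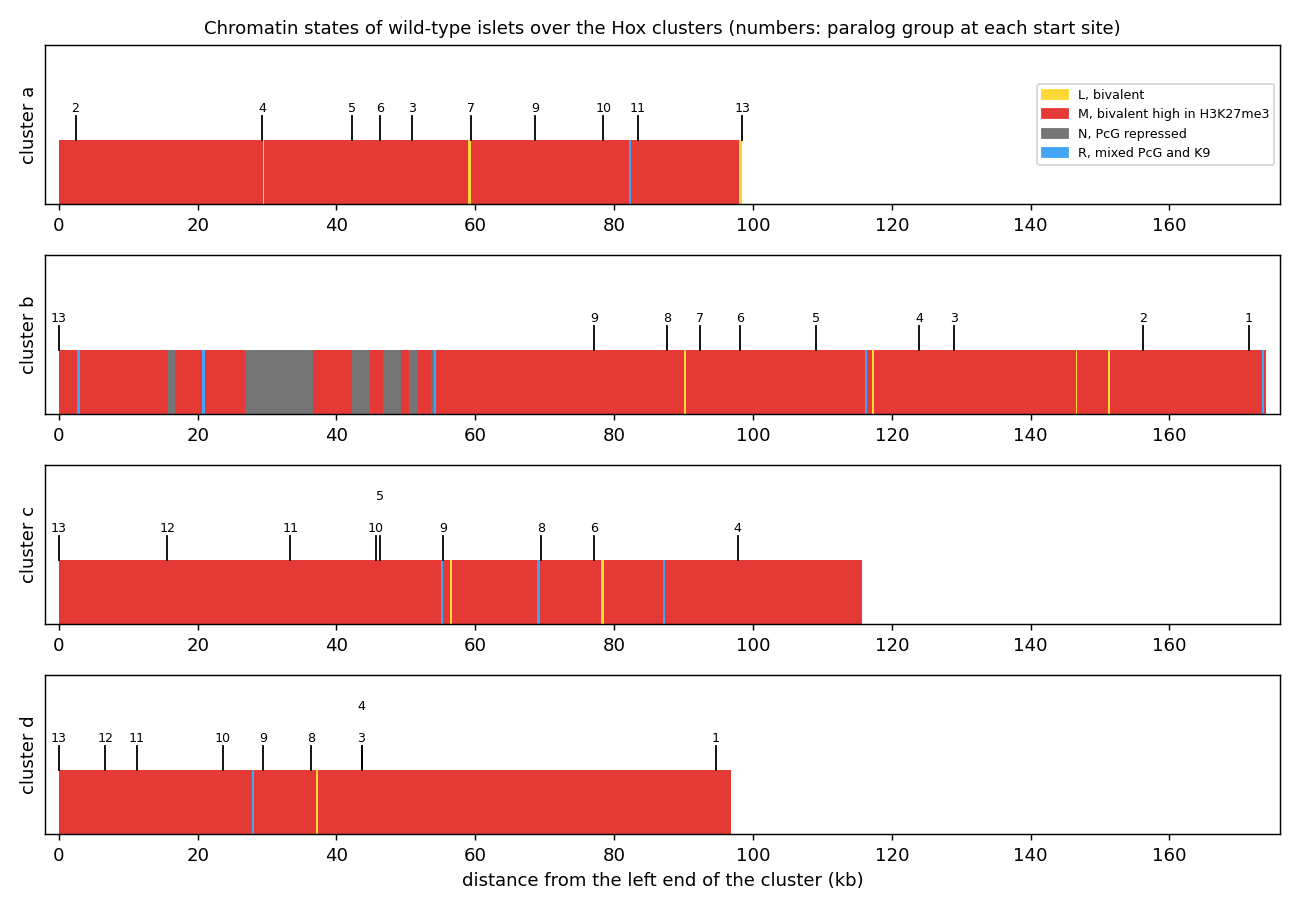
Chromatin state of wild-type islets along each Hox cluster (horizontal, kb from its left end), with the paralog group number at each annotated start site. State M fills nearly all of every cluster (88.2% in b, 98.6% or more in the others), and state N appears between groups 13 and 9 of cluster b.

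As nearly every Hox gene started in the same state, the state does not separate those called from those that were not. Hoxb1, Hoxb2 and Hoxa4, whose groups overlapped at 25 weeks, all started in M. Of the other genes tested with a start site in M, 218 of 868 (25.1%) were called higher at 25 weeks, with a median log2 fold change of 1.96, and of the Hox genes tested with a start site in M 26 of 34 (76.5%). In state L it was 13.8%, in N 6.94%, in O, another Polycomb-repressed state, 2.34%, and in A, the state of active starts, 0.429%. At 8 weeks 22 of the 868 other genes in M (2.53%) were called higher. The state was measured in wild type, and H3K27me3 in βEedKO islets was not analysed here.

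Within the spans of the clusters 41 other genes were counted, mainly non-coding and antisense transcripts, of which 10 were tested at 25 weeks, 4 called higher and 0 lower. Hoxa11os, on the strand opposite to Hoxa11, had 0, 0 and 0 reads in wild type and 69 and 107 in βEedKO, at least 47.7-fold higher (adjusted p = 0.0209). Gm53, a non-coding gene between Hoxb13 and Hoxb9, had 0, 0 and 0 and then 52 and 110, at least 43.9-fold higher (adjusted p = 0.0127). Hoxd3os1 had 0, 1 and 1 and then 52 and 68, a ratio of 48.7 (13.2 to 407; adjusted p = 0.00485), and 9530018H14Rik, beside Hoxa13, was at least 20-fold higher (adjusted p = 0.034). The non-coding RNA Hotair of cluster c had 0, 0 and 0 and then 12 and 24 reads and was not called (adjusted p = 0.168). Of the 8 nearest coding genes outside the clusters, Evx1, a homeobox gene next to Hoxa13, was higher (0, 0.0752 and 0.232 CPM in wild type, 9.50 and 19.9 CPM in βEedKO, log2 fold change 6.74 ± 1.16, adjusted p = 0.0122). Skap1, beside Hoxb1, was lower (−2.15 ± 0.309, adjusted p = 0.00335), and Skap2, Ttll6, Calcoco1, Smug1, Mtx2 and Evx2 were not called. Evx2, next to Hoxd13, had 0, 0 and 0 reads and then 13 and 23. Both homeobox genes that neighbour the group 13 ends of clusters a and d thus had more reads in βEedKO, and Evx1 was called.

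Hox proteins bind DNA with TALE homeodomain partners (Pbx, Meis and Pknox proteins). Of these 9 genes 1 was called higher at 25 weeks and 1 lower. Pknox2 stood at 0, 1.05 and 1.08 CPM in wild type and 26.1 and 28.2 CPM in βEedKO (5.01 ± 0.758, adjusted p = 0.00403), and Pbx3 fell from 48.4, 45.9 and 42.7 CPM to 23.9 and 18.8 CPM (−1.15 ± 0.293, adjusted p = 0.0427). Of the 13 Hox-related homeobox genes, 10 were tested, Evx1 was higher, and Pdx1, Cdx4 and Mnx1 were lower. Pdx1, the pancreatic member of this family and a β cell regulator, went from 124, 112 and 97.8 CPM to 24.6 and 33.9 CPM (−1.99 ± 0.343, adjusted p = 0.00741). Cdx2, of a family that activates Hox genes in the embryo, stood at 0.872, 0 and 0.0773 CPM in wild type and 6.84 and 8.75 CPM in βEedKO (adjusted p = 0.18). Of the 16 regulators of Hox chromatin, Polycomb and Trithorax genes among them, 0 were called at 25 weeks. At 8 weeks none of these lists held a called gene.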

How the data were processed

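RNA-seq counts of 16 islet libraries and a chromatin segmentation of wild-type islets were used. The authors deposited unnormalized counts per gene and library, made with TopHat 2.0.13 on GRCm38 and featureCounts of Subread 1.5.0-p1 on Gencode M9 gene models, from an unstranded kit, and the strand setting is not given in the sources used here. They deposited the segmentation as state letters made with EpicSeg in bins of 200 bp, with replicates averaged. The other data of the series were not used here. No count column was left unused (0).

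Counts were tested in R 4.3.3 with edgeR 4.0.16 (filterByExpr by group, TMM, quasi-likelihood test, Benjamini-Hochberg, threshold 0.05) over 18685 genes in the 11 wild-type and βEedKO libraries and over 18828 genes in all 16, with DESeq2 1.42.0 as an alternative. Gene positions came from GENCODE M21 on the same build, where the 5′ end of a gene is its outermost one, also for Hoxa3, Hoxc5, Hoxd3 and Hoxd4, whose outer transcripts start upstream or within neighbours. It matched 47224 of 47937 genes by identifier. The method was tested on simulated counts. Python 3.11.15 with pandas 2.3.3, scipy 1.17.1 and matplotlib 3.10.9 did the rest. Floors (3 reads) and 95% intervals cover counting error only. All Hox genes are accounted for, the called ones with every library of that age, and lists by their called genes. For genes at 0 in wild type the fold is the floor's bound, since a fitted value there depends on the small count that the fit itself adds. A prior count of 2 was used only for the log levels behind the correlations between libraries.

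The members and lists were chosen with earlier results of these data known. An item of the same group of genes is not reported here. Libraries of wild type and βEedKO that share an age and a replicate number had correlated deviations from their group means (0.457 and 0.163 at 8 weeks, 0.176 and 0.255 at 25 weeks), so the numbers were treated as pairs in the block. With 2 βEedKO libraries at 25 weeks, their deviations mirror each other, so the values of that age are not independent. Heterozygous and βEedKO libraries of one number correlated at −0.00374 (8 weeks) and −0.015 (25 weeks), and wild-type and heterozygous ones at 0.161, 0.08 and 0.0923. The blocked βEedKO effect rests on numbers 1 and 4 at 8 weeks and 2 and 3 at 25 weeks, shared with wild type. The labels do not say what the numbers mark, and 2 libraries of different numbers (3 in wild type and 5 in βEedKO, at 8 weeks) correlated at 0.45.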

Additional observations from a re-analysis of the deposited data

How the results depend on the processing

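The count of 27 Hox genes called at 25 weeks was 18 with the replicate block (3.16% of all genes called higher). Under DESeq2, other scalings (28 with library size alone), other filters, other control libraries and other libraries in the fit it was 24 to 33. The share of all genes called higher under these was 3.47% to 9.71%. Without each library in turn, other than the βEedKO ones of 25 weeks, the count was 11 to 29 (1.85% to 5.84% of all genes). At 8 weeks the count of 1 was 2 with DESeq2 (Hoxc9 with Hoxd8, 1.92% of all genes called higher) and 3 when the heterozygous libraries joined the control (Hoxc9, Hoxc10 and Hoxd8, 2.29% of all genes). It was 0 with the replicate block, which treats the numbers as pairs and called 0 of all 18685 genes, 0 with the libraries of that age alone, where 2 Hox genes passed the filter and 11 of 16037 genes were called, and 0 to 1 without each library in turn. The count of 0 for the difference between the ages was 7 with DESeq2, 1 with no filter on low counts (Hoxa9), and 0 with the replicate block and without each library. The direct comparison of βEedKO at the 2 ages was a separate contrast added after seeing the data. Its count of 17 ranged from 2 to 20 without each library other than the βEedKO ones of 25 weeks (0.221% to 1.27% of all genes called higher). The block changed no call in heterozygous islets, where the count was 0 under every alternative run. Library size alone moved the median log2 fold change of all genes from 0.03 to 0.265 at 25 weeks, and no Hox gene called turned direction under it. With spans widened by 10 kb on each side, state M covered 97.2% of cluster c and 95.8% of cluster d. The cause of these changes was not tested. The Hox genes at 0 in wild type limit the folds to lower bounds, and the smallest library (4645393 reads) was a wild-type one of 25 weeks. With 2 βEedKO libraries at 25 weeks, the spread rests on all groups of the fit.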

Other observations

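Across the 11 wild-type and heterozygous libraries, a relation that was examined after the data were seen, the summed Hox level followed the summed level of the 10 mesenchyme markers, both as log2 CPM. Pearson's r was 0.90 (permutation p = 0.00015, adjusted over 11 marker lists 0.00165) and Spearman's rho 0.84 (permutation p = 0.00236, adjusted 0.026). The permutations took no account of age or genotype, and the adjustment does not cover the choice of this relation after the data were seen. Without the 2 libraries farthest from the median r was 0.68. Within the 6 libraries at 8 weeks it was 0.91, but these include heterozygous replicate 2, which is highest in both sums. The 5 libraries at 25 weeks were too few. The source of the Hox RNA in these libraries was not tested. For the macrophage markers r was 0.64 (permutation p = 0.0415, adjusted 0.228), and for the other 9 lists the adjusted p was 0.619 or more. Heterozygous replicate 2 at 8 weeks, the library with the most Hox RNA of these, had 83.0 CPM of Dcn, the extracellular matrix gene decorin, where replicates 1 and 3 had 6.82 and 5.78 CPM.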
